A study of Mus musculus with 3 samples.

Results

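Chemoattractant and inflammatory G protein-coupled receptors were followed in the mouse macrophage line RAW264.7 under lipopolysaccharide (LPS), a bacterial outer membrane glycolipid sensed by Toll-like receptor 4, with arrays at 0, 2 and 12 h. The receptors were every probe set annotated to Ccr1, Ccr2, Cx3cr1, Cxcr4, C5ar1, C3ar1, Fpr1, Gpr84 or Ptafr. Of these 9 genes, 8 had a probe set and 14 probe sets were read, out of 22626 non-control probe sets and 12393 named genes in all. No probe set was annotated to Fpr1, the formyl peptide receptor gene, so it was not analysed here. There was 1 array per time and 3 in all, without replicates, and the untreated array was taken at 0 h alone, so LPS and time in culture cannot be told apart. All arrays came from the same cell line, with no genotype or other agent named in the labels, and the LPS dose is not given in the sources used here. A single transformed line stands here for macrophages, and the values are mRNA signals, not receptor protein at the cell surface.

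These receptors span the membrane and pass their signal mostly through inhibitory (Gi) G proteins to phosphoinositide 3-kinase, calcium release and the cytoskeleton, which turns a gradient of ligand into directed movement. Ccr1 and Ccr2 bind CC chemokines and bring monocytes to inflamed tissue, Cx3cr1 binds fractalkine and marks patrolling monocytes and resident macrophages, and Cxcr4 binds Cxcl12 and retains cells in bone marrow. C5ar1 and C3ar1 read the complement fragments C5a and C3a. Fpr1 reads bacterial formyl peptides, Gpr84 responds to medium-chain fatty acids, and Ptafr is the receptor of platelet-activating factor (PAF), an inflammatory lipid. Phosphorylation by receptor kinases, arrestin binding and RGS proteins end the signal.

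Signals are linear and were scaled to one trimmed mean per array. A floor was set at a signal of 34.96, the 40th percentile of all scaled values, and signals under it have no order. A gene under the floor on 1 array of a comparison has only a bound, and a gene under it on both has no fold. A difference is called at 2-fold or more between 2 arrays. No test of the conditions was possible and no p-value was computed. As the only measured error, the log2 differences of probe sets of one gene varied with an SD of 0.32 at 2 h and 0.34 at 12 h, both against 0 h, and of 0.31 between 12 h and 2 h. That SD does not hold the error between cultures. The cells had macrophage markers throughout: 9 of 10 listed markers were at or above the floor on each array, and Mrc1 alone was under it. None of 5 T cell markers reached the floor on any array, and of 4 B cell markers Ms4a1 did, at 12 h. Of 3 natural killer cell markers 2, 1 and 1 reached it at 0, 2 and 12 h, of 4 mast cell markers 1, 1 and 2, and of 5 fibroblast and 4 epithelial markers 1 each at every time. The summed signals of these lists were between 64.6 and 149. Of 7 neutrophil markers, 3, 2 and 5 reached the floor at 0, 2 and 12 h, with summed signals of 205, 168 and 271, against 20930, 21435 and 23331 for the macrophage list. The part of these markers in the receptor signals was not tested.

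The promoters of 4 receptor genes are shown because they stand for the 4 courses described below: Gpr84 for an early peak, Ccr1 for a late increase, Cx3cr1 for a late decrease and C3ar1 for a difference under 2-fold. Each is 250 bases before to 50 after the gene's start in RefSeq, assembly GRCm38.p6, read on the gene's strand. Capitals mark a short kB motif (GGGNNTTTC), an AP-1 motif (TGANTCA) or a PU.1 core (GAGGAA), on either strand. Gpr84 lies at chr15:103310389-103310688, Ccr1 at chr9:123968643-123968942, Cx3cr1 at chr9:120068247-120068546 and C3ar1 at chr6:122856108-122856407, each on the minus strand.
Gpr84: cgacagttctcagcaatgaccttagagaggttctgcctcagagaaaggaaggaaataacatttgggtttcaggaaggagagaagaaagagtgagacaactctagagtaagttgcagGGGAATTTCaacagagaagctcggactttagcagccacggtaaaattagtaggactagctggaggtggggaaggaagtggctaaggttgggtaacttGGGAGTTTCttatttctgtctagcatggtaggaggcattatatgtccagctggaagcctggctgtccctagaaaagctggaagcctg
Ccr1: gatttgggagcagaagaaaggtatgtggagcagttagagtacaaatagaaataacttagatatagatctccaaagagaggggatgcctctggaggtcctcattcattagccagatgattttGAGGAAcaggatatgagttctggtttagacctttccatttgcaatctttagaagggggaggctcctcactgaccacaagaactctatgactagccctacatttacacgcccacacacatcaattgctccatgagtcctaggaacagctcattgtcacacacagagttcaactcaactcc
Cx3cr1: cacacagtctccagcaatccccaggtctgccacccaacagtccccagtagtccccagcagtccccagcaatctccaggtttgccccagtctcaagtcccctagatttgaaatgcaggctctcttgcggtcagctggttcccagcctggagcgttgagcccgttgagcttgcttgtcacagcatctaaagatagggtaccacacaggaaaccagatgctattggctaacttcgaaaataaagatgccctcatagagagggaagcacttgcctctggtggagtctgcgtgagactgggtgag
C3ar1: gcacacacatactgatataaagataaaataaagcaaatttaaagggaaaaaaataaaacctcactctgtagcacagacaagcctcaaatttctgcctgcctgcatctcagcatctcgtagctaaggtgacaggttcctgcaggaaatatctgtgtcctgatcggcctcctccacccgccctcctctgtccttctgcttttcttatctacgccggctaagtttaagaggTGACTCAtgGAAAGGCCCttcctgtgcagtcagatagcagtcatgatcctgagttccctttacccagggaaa

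All 9 receptor genes had a promoter entry, and 7 motifs were searched in each. The short kB motif was in 3 of 9, those of Gpr84, C3ar1 and Cxcr4, and in 4.36% of 32851 promoters of the same length. Gpr84 held it at 2 places, beginning 134 and 37 bases before the start, and C3ar1 held it at 13 bases before the start. The choice of this motif followed a look at the Gpr84 sequence, so its count is a description. The AP-1 motif was in the promoter of C3ar1 alone, 22 bases before the start, and in 7.81% of all promoters. The PU.1 core, bound by a master factor of macrophages, was in those of Ccr1, 129 bases before the start, and of Ptafr, and in 28.3% of all. A longer and looser kB pattern, GGG and CC set apart by any 5 bases, which can overlap the short one, was in 3 of 9 and in 50.8% of all promoters. The C/EBP pattern TTNNGNAA was in 6 of 9 and 40.7% of all, and a TATA box (TATAAA) in 3 of 9 and 13.6% of all. No receptor promoter held the IRF pattern, a pair of GAAA runs with any 2 bases between them, found in 3.44% of all. In Cx3cr1 none of the 3 capitalised motifs occurred in this window. A match of letters does not show that a factor binds there.

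At 2 h of LPS the leading receptor gene was Gpr84, 5.84-fold higher than at 0 h. It was the only one of 4 measured receptor genes called higher, against a background of 2.09% of 8413 measured genes, and none was called lower, against 1.68%. With the arrays set to a common median the background split of all genes was 224 higher to 72 lower in place of 176 to 141, and under quantile normalization 199 to 85. Gpr84, C5ar1, C3ar1 and Cx3cr1 were above the floor on every array. Ccr1, Ccr2, Cxcr4 and Ptafr were under the floor on both the 2 h and the 0 h arrays, so no fold is given for them. The median log2 difference of the 4 measured receptor genes was 0.62, beside -0.10 over all measured genes.

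Gpr84, the medium-chain fatty acid receptor gene, had signals of 509 at 0 h, 2974 at 2 h and 775 at 12 h in its single probe set. The 2 h array stood well above the others, and the 12 h array stayed above 0 h. Ranked by increase at 2 h among 7510 genes that both arrays measured, Gpr84 was 29th from the highest. At 12 h it was 3.84-fold lower than at 2 h, a log2 difference of -1.94, and ranked 20th from the lowest of 7518 genes. It was then 1.52-fold higher than at 0 h, under the 2-fold line. The log2 difference of 2.55 at 2 h was 7.99 times the SD between probe sets. With 1 probe set, the gene has no second reading of its own.

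C5ar1, the C5a receptor gene, also had its highest signal at 2 h, but unlike Gpr84 it was under its 0 h signal at 12 h. Its single probe set gave 463 at 0 h, 774 at 2 h and 358 at 12 h. At 2 h it was 1.67-fold higher than at 0 h, a log2 difference of 0.74 or 2.33 times the SD between probe sets, and was not called. At 12 h it was 2.16-fold lower than at 2 h and ranked 107th from the lowest of 7518 genes. The 12 h array was the lowest of the 3, with a log2 difference of -0.37 from 0 h.

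C3ar1, the C3a receptor gene, stayed under 2-fold, and its highest signals were on the 12 h array. Its brighter probe set gave 513 at 0 h, 724 at 2 h and 837 at 12 h. The dimmer probe set gave 229, 219 and 302 at the same times. At 12 h the brighter was 1.63-fold and the dimmer 1.32-fold higher than at 0 h. At 2 h they disagreed in sign, with log2 differences of 0.50 and -0.07 from 0 h. Neither was called in any comparison, and at 12 h against 2 h the brighter was 1.16-fold and the dimmer 1.38-fold higher.

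**Figure D1:**
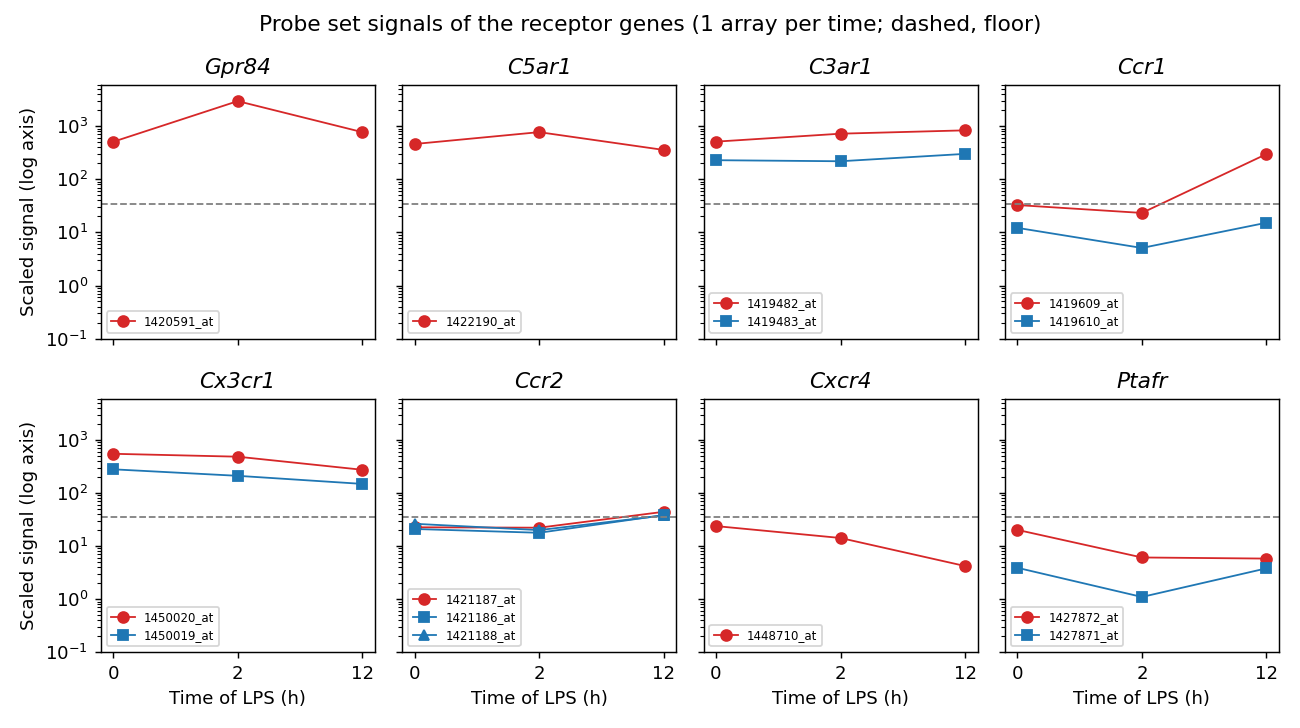
Scaled signal (log axis) of each receptor probe set at 0, 2 and 12 h of LPS, with times spaced evenly, 1 array per time, red for the brightest probe set of a gene, blue for the others and a dashed line for the floor of 34.96. Gpr84 peaks at 2 h at 2974, Ccr1 crosses the floor only at 12 h in 1 of its 2 probe sets, and both Cx3cr1 probe sets are lowest at 12 h.

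At 12 h of LPS the leading receptor gene was Ccr1, at least 8.56-fold higher than at 0 h, while Cx3cr1 was 2.00-fold lower. Of 6 measured receptor genes, 1 was called higher, against a background of 3% of 8619 measured genes, and 1 lower, against 2.39%. Gpr84, the gene called at 2 h, was not among them. Ccr1 and Ccr2 entered the 6 only through the 12 h array, where they were above the floor, so their values are bounds. Neither of them could be called lower. The 4 receptor genes that both arrays measured had a median log2 difference of 0.12, beside -0.06 over the 7665 genes measured in that way.

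Ccr1, a receptor for Ccl3, Ccl5 and other CC chemokines, was read by a pair of probe sets that differed in their signal. The brighter gave 32.8 at 0 h, 23.3 at 2 h and 299 at 12 h, under the floor on the first arrays and 8.56 times the floor at 12 h. The dimmer gave 12.2, 5.1 and 15.2, under the floor at every time, so it has no fold. The increase of Ccr1 therefore rests on 1 probe set on 1 array. Whether the dimmer probe set detects the transcript was not tested. Because both earlier arrays were under the floor, Ccr1 was also at least 8.56-fold higher at 12 h than at 2 h. At 12 h against 2 h it was the 1 receptor gene called higher of 6 measured, against a background of 2.65% of 8457 genes. Ccr1 and Ccr2 counted among the 6 only through the 12 h array, the one on which Ccr1 was called. Of the 4 receptor genes above the floor on both arrays, none was called higher.

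Cx3cr1, the fractalkine receptor gene, was the only receptor gene called lower at 12 h at the floor used. Its brighter probe set gave 547 at 0 h, 482 at 2 h and 274 at 12 h. The dimmer gave 279, 210 and 148, in the same order. At 12 h the brighter was 2.00-fold and the dimmer 1.88-fold lower than at 0 h, so one lay on the 2-fold line and the other under it. The log2 difference of the brighter was -2.95 times the SD between probe sets and ranked 174th from the lowest of 7665 genes. With the arrays set to a common median, with a pseudocount or with the median of both probe sets, it was under 2-fold, and over the settings tried the log2 difference lay between -1.02 and -0.92. At 2 h the differences were -0.18 and -0.41 on the log2 scale, and at 12 h against 2 h the brighter was 1.76-fold lower.

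Ccr2, the main receptor of Ccl2, stayed near the floor. Its brightest probe set had signals of 22.6 at 0 h, 22.2 at 2 h and 44.2 at 12 h. The other 2 gave 38.4 and 37.7 at 12 h, and between 17.8 and 26.3 at the earlier times. All 3 probe sets crossed the floor at 12 h and none before. The bounds were small, at least 1.26-fold, 1.10-fold and 1.08-fold higher than at 0 h, and none was called. With a lower floor, at the 20th percentile or a signal of 10.8, the brightest was 1.96-fold higher.

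Cxcr4 and Ptafr were under the floor on every array. The single Cxcr4 probe set gave 23.8 at 0 h, 14.2 at 2 h and 4.21 at 12 h. The Ptafr probe sets gave 20.2, 6.1 and 5.81 for the brighter, and 3.9, 1.1 and 3.81 for the dimmer. These signals have no order at the floor used, and whether the probe sets detect the transcripts was not tested. At 12 h against 2 h the receptor genes called lower were Gpr84 and C5ar1, 2 of 6 measured, against a background of 1.97% of all measured genes. Ccr1 and Ccr2 were among the 6 only through the 12 h array and could not be called lower. The split of all genes in that comparison was 224 higher to 167 lower, or 178 to 225 with the arrays set to a common median.

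**Figure D2:**
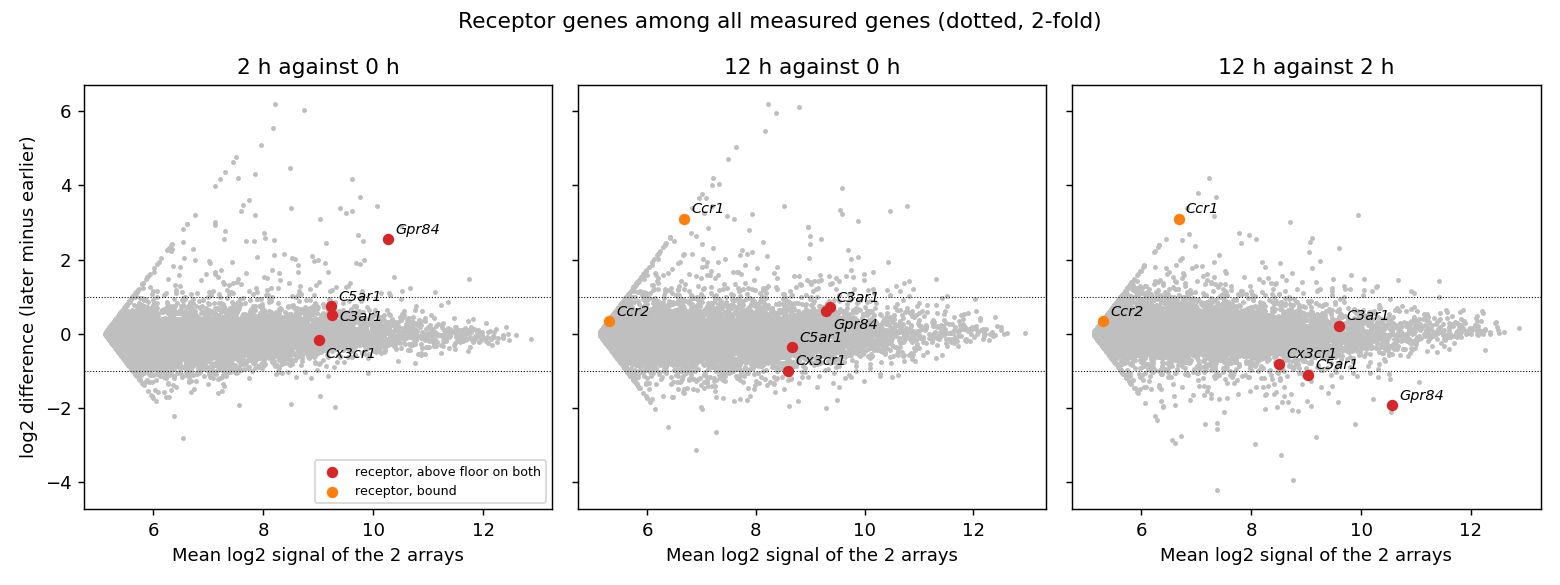
Log2 difference, later minus earlier array, against the mean log2 signal of the 2 arrays for every measured gene (grey), with receptor genes in red where above the floor on both arrays and in orange where the value is a bound; dotted lines mark 2-fold. Gpr84 lies at 2.55 in the left panel and at -1.94 in the right, and Ccr1 at 3.10 in the middle and right panels.

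The genes with the most similar course were ranked by Euclidean distance over the 2 log2 differences from 0 h, that is over 3 arrays, among 8723 other genes at or above the floor at least once. Nearest to Gpr84 were Tnfsf9, the 4-1BB ligand gene, at a distance of 0.17 on the log2 scale, the ubiquitin ligase gene Peli1 at 0.25 and the NF-kB inhibitor gene Nfkbie at 0.32. Tnfsf9 was 5.89-fold higher at 2 h and 1.35-fold at 12 h than at 0 h. Nearest to Ccr1 were the serpin gene Serpinb2 at 0.29, Ifi202b at 0.37 and the protein C receptor gene Procr at 0.39. Serpinb2 had signals of 5.89, 15.9 and 366 at 0, 2 and 12 h. Like Ccr1 it was under the floor at 0 and 2 h. For both genes the floor set the 2 h difference to 0 and the 12 h difference is a bound, so their distance does not compare measured courses. Ifi202b and Procr were above the floor on all arrays and were 7.32-fold and 8.56-fold higher at 12 h than at 0 h. Nearest to Cx3cr1 were Luzp1 at 0.013, the mitotic spindle gene Aspm at 0.056 and Mtch1 at 0.065. Nearest to C5ar1 were Phldb1 at 0.057, the cathepsin gene Ctsf at 0.059 and Cysrt1 at 0.081. With 3 arrays many genes lie close to a small difference by this measure.

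Several ligand genes of these receptors were higher at both times. Of 16 listed ligands and precursors, 15 had a probe set, and at 12 h 6 of 12 measured were called higher and none lower, with a median log2 difference of 1.48. Over all measured genes 3% were higher at that time and the median was -0.05. At 2 h it was 4 of 11, with none lower and a median of 0.50, beside 2.09% and -0.10 over all measured genes. Ccl6 and Cx3cl1 at both times, and Ccl12 at 12 h, were counted only through the later array. They could not be called lower, and their bounds are part of the medians. Among Ccr1 ligands, Ccl5 had signals of 43.3, 796 and 1900 at 0, 2 and 12 h. Ccl3 had 531, 3953 and 5830, so both were called at 2 h, when Ccr1 was under the floor. Ccl7, which binds Ccr1 and Ccr2, had 44.4, 53.3 and 480, with the increase on the 12 h array as for Ccr1. Ccl2, the ligand of Ccr2, was 3.70-fold higher at 2 h and 9.91-fold at 12 h, Ccl4 was 10.8-fold and 8.19-fold higher, and Ccl6 was at least 4.05-fold higher at 12 h. Taking the median of both Ccl6 probe sets gave 2.81-fold, and 1.67-fold was left with a floor at the 60th percentile. Cx3cl1, which encodes fractalkine, had 34.4, 52.2 and 49.1, and was at least 1.49-fold higher at 2 h and not called. Hc, which encodes complement C5, and Cxcl12, the Cxcr4 ligand gene, were under the floor on all arrays.

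Most other receptor genes were under the floor or not called. Over all measured genes, 2.09% were higher and 1.68% lower at 2 h, and 3% and 2.39% at 12 h, and with lists this short a single gene exceeds those shares. Of 17 other chemokine receptor genes with a probe set, 8 were under the floor on all arrays, and 1 was called, Ccrl2, an atypical receptor that binds chemerin. Ccrl2 had signals of 35.8, 327 and 129, with its high point at 2 h as for Gpr84. Its 0 h signal was close to the floor, and unlike Gpr84 it was still called at 12 h, 3.60-fold higher than at 0 h. Of 8 other chemoattractant receptor genes, 5 were under the floor throughout and 1 was called, Fpr2, a formyl peptide receptor related to Fpr1. Fpr2 had 47.1, 62.1 and 148, and was 3.14-fold higher at 12 h than at 0 h. Of 20 other inflammatory receptor genes, 8 were under the floor throughout, 1 of 12 measured was called higher at 2 h and 2 of 11 at 12 h, with none lower. These were Hcar2, the niacin and hydroxybutyrate receptor gene, at least 4.09-fold higher at 2 h and at least 5.41-fold at 12 h, and Adgre1, the F4/80 gene, 2.12-fold higher at 12 h. Genes counted only through the later array, Hcar2 among them, could not be called lower. A higher floor, at the 60th percentile, put Fpr2 and Ccrl2 at 12 h and Hcar2 at 2 h under 2-fold.

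In the signalling machinery 3 genes were called against 0 h, namely Gng2, Rac2 and Rgs16. Of 18 G protein and effector genes with a probe set, 1 of 17 measured was called higher at 2 h and 2 of 16 at 12 h, beside 2.09% and 3% over all measured genes, and none lower. Gng2, a G protein gamma subunit gene, was at least 2.86-fold and at least 3.29-fold higher at these times, or 1.18-fold and 1.36-fold with that higher floor. It was under the floor at 0 h, so it could not be called lower. Rac2, which encodes a leukocyte GTPase, was 2.31-fold higher at 12 h. Gnai2, the main Gi alpha subunit gene of leukocytes, had 806, 784 and 698, and was not called. Of 12 receptor kinase, arrestin and RGS genes, Rgs16 alone was called, 8.03-fold higher at 2 h and 4.40-fold at 12 h, and by the median over its 3 probe sets the log2 difference at 12 h was 1.53 in place of 2.14. Rgs2 fell just short of the 2-fold line in the other direction at 12 h, with a log2 difference of -0.998 from 0 h. The list thus had 1 of 12 measured genes called higher at each time, beside 2.09% and 3% over all measured genes. Its median log2 difference was -0.23 at 2 h and -0.39 at 12 h, beside -0.10 and -0.05 over all measured genes. Of 6 measured PAF synthesis and breakdown genes none was called at 2 or 12 h against 0 h, and Pafah2, a PAF-hydrolysing enzyme gene, was 2.29-fold higher at 12 h than at 2 h.

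**Figure D3:**
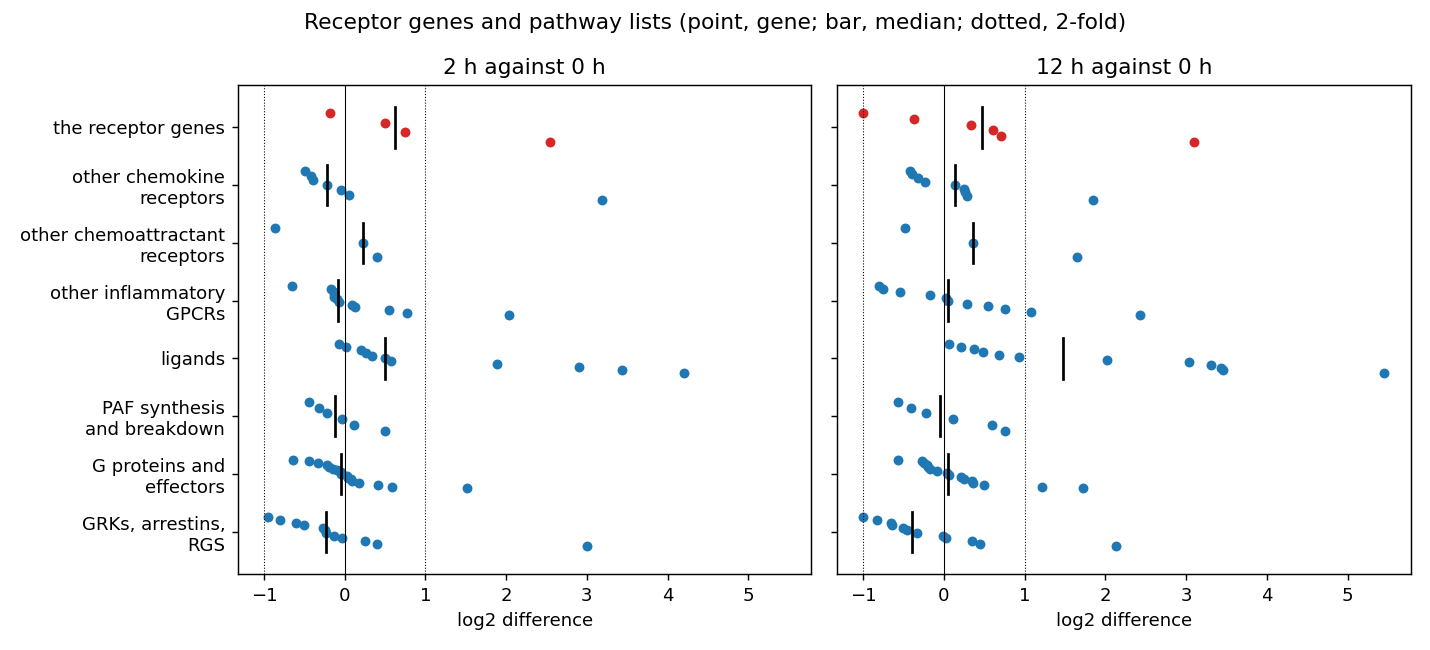
Log2 difference from 0 h at 2 h (left) and 12 h (right) of each measured gene (points, bounds included) of the receptor genes in red and of 7 pathway lists in blue, with a bar at each median and dotted lines at 2-fold. The ligand list has the highest median at 12 h, 1.48, and single genes such as Ccrl2, Hcar2 and Rgs16 stand apart in lists with low medians.

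The sizes of Gpr84 and C5ar1 moved little with the processing, and that of Ccr1 moved most. For Gpr84 at 2 h against 0 h the fold lay between 5.55 and 6.45 over the settings, and for C5ar1 between 1.61 and 1.85. Both were above each floor and have a single probe set, so only the scalings and the pseudocount could move them. For Ccr1 at 12 h against 0 h it lay between at least 3.53 and 9.13, and its 0 h signal of 32.8 was above the floor only with that at the 20th percentile. C3ar1 at 2 h lay between 1.16 and 1.56, the lowest being the median of its probe sets.

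**Figure D4:**
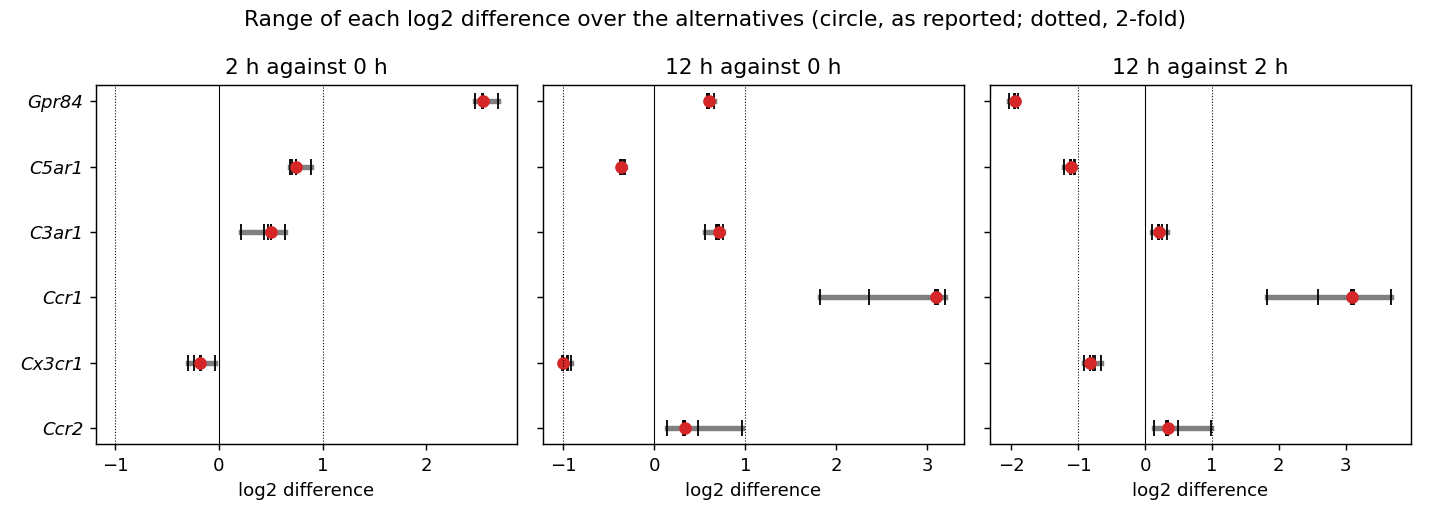
Log2 difference of 6 receptor genes in the 3 comparisons as reported (red circle) and under each alternative (ticks, joined by a grey bar from lowest to highest), with dotted lines at 2-fold. Gpr84 stays beyond 2-fold at 2 h against 0 h under each alternative, Cx3cr1 straddles the line at 12 h against 0 h, and Ccr1 has the widest bars.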

How the data were processed

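RNA was isolated using a commercial kit and the array target was prepared with a modified Affymetrix protocol, per the labels' protocols. The authors deposited linear intensity signals for 22690 probe sets (64 controls), without detection calls and with a 2% trimmed mean of 150.05 on each array. For scanner software and scaling, no method is stated in the labels. The 20380 probe sets having 1 gene in the platform annotation were named, with symbols updated through RefSeq (GRCm38.p6).

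Arrays were rescaled to a common 2% trimmed mean of non-control probe sets, a shift of at most 0.16%. Each gene was read by its probe set of highest mean log2 signal, and lower values were raised to the floor ahead of the log2 step. The number of arrays limits the precision. The alternatives were other scalings, floors, a pseudocount of 32, other probe set rules and 1.5-fold. Counting was tested on simulated data, with genes well above the floor, planted changes well beyond 2-fold and noise below the SD between probe sets. That did not cover signals near the floor or differences close to 2-fold. The named genes were the receptors, the 3 nearest courses of each called receptor, and up to 6 called genes per list. Other list genes were chosen after their values were seen. The members and lists were chosen with earlier results of these data known. Python 3.11.15, numpy 2.4.6, pandas 2.3.3 and scipy 1.17.1 were used.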

Additional observations from a re-analysis of the deposited data

How the results depend on the processing

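With 1 array per time no replicate could be left out, and no paired analysis was possible because the labels give no replicate numbers. Gpr84 at 2 h, Ccr1 at 12 h, and Gpr84 and C5ar1 at 12 h against 2 h passed 2-fold under each scaling, floor, pseudocount and probe set rule tried. The probe set rules could not change these calls. No receptor probe set has the name suffix for cross-hybridisation that 1 rule drops. The other rule takes a median over probe sets, and Gpr84 and C5ar1 have 1 each. The Ccr1 median left out its dimmer probe set, which was under the floor on every array. At 1.5-fold, 2 receptors were higher at 2 h, with C5ar1 added, and 3 at 12 h against 0 h, with C3ar1 and Gpr84 added. The 1 receptor lower at 12 h against 0 h, Cx3cr1, became 0 with arrays at a common median, a pseudocount or the median of its probe sets. It became 2 with a floor at the 20th percentile, when Cxcr4, under the floor otherwise, had a log2 difference of -1.14 or lower. Of 126 log2 differences under an alternative of receptors with a fold or bound as reported, 119 moved by less than the SD between probe sets and 7 by more, all 7 in Ccr1 or Ccr2 and with another floor or the pseudocount. Another 15, for receptors under the floor on both arrays as reported, had a value only with the lower floor or the pseudocount, from -1.14 to -0.010, with Cxcr4 at -0.74 and Ptafr at -0.90 for 2 h against 0 h at the lower floor. Part of the 119 could not move. Gpr84, C5ar1, C3ar1 and Cx3cr1 were above each floor on every array, so other floors left them unchanged. The suffix rule left all receptors unchanged. For Ccr1 at 12 h the log2 difference from 0 h was 1.82 with a floor at the 60th percentile and 2.35 with the pseudocount, in place of 3.10. Arrays at a common median put the median over genes measured on both arrays at 0.04 for 2 h, in place of -0.10, and Gpr84 was then at 2.69. Over all genes, a floor at the 20th percentile gave 349 higher and 507 lower at 2 h, and 1.5-fold gave 470 and 810. Signals near or under the floor limit what can be said of Ccr1, Ccr2, Cxcr4 and Ptafr.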

Other observations

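Ccr1 and Ccr2 lie close together on mouse chromosome 9, in a cluster of chemokine receptor genes, and no neighbour measured here had an increase at 12 h as large as that of Ccr1. In the order of the RefSeq annotation, the neighbours with a probe set on the side of Ccr1 were Xcr1, Cxcr6, Fyco1, Ccr9, Lztfl1 and Slc6a20a, and Ccr1l1 and Ccr3 lay between Ccr1 and Ccr2. Xcr1, the lymphotactin receptor gene, had signals of 28.7, 33 and 42.5 at 0, 2 and 12 h. Ccr3, the eotaxin receptor gene, had 19.1, 17.8 and 38.4, and Cxcr6 had 36.2, 23.5 and 43.4. Ccr1l1, a Ccr1-like gene, had 43.4, 33.2 and 40.6, against 32.8, 23.3 and 299 for Ccr1. Ccr9 and Slc6a20a were under the floor throughout. In this stretch Lztfl1, which encodes a ciliary trafficking protein, was the other gene called, 2.55-fold higher at 2 h than at 0 h, with signals of 121, 309 and 221. These genes were read after the values of Ccr1 were known.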
